A study of Homo sapiens with 6 samples.

Results

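Polyadenylated RNA of the human monocytic leukaemia line THP1 was compared between the libraries labelled shALKBH5 and those labelled shCtrl. Both groups were chosen by sample title, and they make up 4 of the 6 libraries of the series, with n = 2 per group. The shCtrl libraries carry a control hairpin and are labelled wild-type, the shALKBH5 libraries carry a hairpin labelled as an ALKBH5 knock-down, and the remaining pair is labelled ALKBH5 rescue. All were grown in RPMI-1640 with 10% serum, and the labels give neither a time after transduction nor how many clones or hairpins were used. Each title has a replicate number, and libraries of the same number were treated as a pair. No label ties a number to a separate culture or day, so a p-value here reflects only how much these libraries vary, and that variation may be technical. The rescue libraries enter the main fit to add to the estimate of that spread. Through the shared replicate block they also have some weight in the fitted differences, and more where another library is left out.

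ALKBH5 is an oxygenase that removes the methyl group of N6-methyladenosine (m6A) from RNA. The mark is written on messenger RNA by a complex built around METTL3 and METTL14, is also removed by FTO, and is bound by YTH-domain proteins that act on splicing, translation and decay. In myeloid leukaemia cells ALKBH5 is known as a gene on which growth depends. A comparison of knock-down with control asks which transcripts change in level when the enzyme is reduced.

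The targeted gene did not follow these labels, so every group name below means the libraries as labelled. ALKBH5 was at 14.6 and 12.4 CPM (counts per 1e+06, with library sizes scaled by the trimmed mean of M-values) in shCtrl and shALKBH5 replicate 1, and at 1097 and 1003 CPM in replicate 2. Its paired log2 difference, shALKBH5 minus shCtrl, was -0.17 (SE 0.11, 95% interval -0.42 to 0.08, edgeR adjusted p = 0.978), with -0.23 in number 1 and -0.13 in number 2. The interval leaves out a reduction by a log2 of 0.5 or more along the labels. Total estimated counts were 14534386 and 19477197 in shCtrl and 18330205 and 19010128 in shALKBH5. Same-numbered libraries deviated together from their group means (r = 0.685 across genes for this pair of groups), and the typical variation of a gene between libraries was 10.6% with the number as a block and 27.7% without it. Of 10 markers of THP1 and its lineage, CD33 (55.9 to 78.8 CPM), LYZ, SPI1, CSF1R, ELANE, CD14, ITGAM and HOXA9 were present in all 4 libraries, MPO was low at 1.63 to 2.97 CPM, and MEIS1 was at 0 in 3 of them. Summed markers of erythroid cells and megakaryocytes stood at 7.09 to 13.6 CPM in shCtrl and 7.94 to 11.7 CPM in shALKBH5, those of B cells at 9.91 to 15.4 and 9.08 to 13.5 CPM, and those of epithelial cells and fibroblasts at 3.18 to 3.30 and 3.46 to 4.28 CPM. The T and NK cell list summed to 210 to 238 and 189 to 226 CPM, of which CD4, also expressed by monocytes, held 78.0%, and 10 of its 13 genes lay under 1 CPM in all 4 libraries. In bulk RNA, fewer cells of a type and less RNA per cell cannot be told apart.

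Across genes, 1 of 14497 passed in the paired fit (0.0069%, edgeR quasi-likelihood test, adjusted p under 0.05), and it was a pseudogene. RPL21P16 (chr10:120354701-120355183, minus strand, GRCh38) is a processed copy of RPL21, which encodes a protein of the large ribosomal subunit. It had 0 counts in both shCtrl libraries and in shALKBH5 replicate 1, and 275 counts (14.4 CPM) in shALKBH5 replicate 2. The value in that library was at least 90.4-fold higher than in shCtrl replicate 2, set at a floor of 3 counts (0.16 CPM) in that library, and the edgeR adjusted p was 0.0104. The call therefore rests on number 2, and without shCtrl replicate 2 the fitted difference was -0.024. In the rescue libraries RPL21P16 had 0 counts in replicate 1 and 242 counts (14.9 CPM) in replicate 2, so its counts followed the number there too. The copy cannot be told from its parent by the sequence used for counting. Its 483 bases matched the RPL21 transcript at 483 positions, and each of its 453 stretches of 31 bases, the word length taken here from the default of the counting tool, also occurs in RPL21. The first 90 bases of the copy and the start of the RPL21 coding sequence, bases 91 to 180 of its transcript, are shown to make that identity visible.
RPL21P16: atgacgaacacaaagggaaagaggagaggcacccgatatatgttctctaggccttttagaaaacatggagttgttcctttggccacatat
RPL21-201: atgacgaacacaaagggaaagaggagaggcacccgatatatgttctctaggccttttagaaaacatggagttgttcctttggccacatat

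RPL21 itself measured 185 and 132 CPM under shCtrl and 215 and 333 CPM under shALKBH5. Both shALKBH5 values lie above both shCtrl values, with a log2 difference of 0.71 (SE 0.29, edgeR adjusted p = 0.978). Reads of RPL21 and its named pseudogenes summed (23 genes) came to 183 and 133 unscaled CPM in shCtrl, 213 and 361 in shALKBH5, and 169 and 434 in the rescue libraries. The sum was thus higher in shALKBH5 than in the shCtrl library of the same number in both pairs, and the rescue library was lower than shCtrl in number 1.

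In all, 347 genes (2.39%) had an unadjusted p under 0.05, 266 higher (1.83%) and 81 lower (0.559%). Each fit with a library left out had 1 residual degree of freedom, where the main fit had 2. A lone rescue library adds nothing to the estimate of spread. The fits without a rescue library thus had the same variation between libraries (6.99%) as the 4-library fit described below, and largely repeat it. The number called moved with the libraries in the fit. It was 4 without shCtrl replicate 1, 1 without shCtrl replicate 2, 25 without shALKBH5 replicate 1, 17 without shALKBH5 replicate 2, 420 without rescue replicate 1 and 393 without rescue replicate 2. DESeq2 with the block called 1 gene (97 at an unadjusted p under 0.05), and it was another one, RSC1A1 (DESeq2 adjusted p = 0.0351), a regulator of sodium-glucose transport. RSC1A1 was at 0 in both shCtrl libraries, at 0.971 and 3.88 CPM in shALKBH5 and at 0.13 and 5.04 CPM in rescue. RPL21P16 had an adjusted p of 1 in DESeq2 and of 0.97 in limma-voom, which called 0 genes (419 at an unadjusted p under 0.05). Without the block edgeR called 0, with 38 at an unadjusted p under 0.05.

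Agreement between the replicate numbers was then counted directly. Among 13202 genes of at least 1 CPM on average, 80 were higher by a log2 ratio of at least 0.5 in both numbers (0.606%) and 42 were lower in both (0.318%). Opposite moves of that size were found for 85 genes (0.644%). Over all 14497 genes tested, groups did not overlap for 1348 genes on the higher side (9.3%) and 1185 on the lower (8.17%). Of the 13202 genes, 719 were past a log2 ratio of 0.5 within number 1 and 1098 within number 2. At 5 CPM or more, 29 genes were higher in both, 3 were lower in both and 8 moved oppositely, 2 one way and 6 the other. The differences of both numbers correlated across those 10810 genes at r = 0.222 and across the 13202 genes at r = 0.108. These genes share libraries and base composition, so the values are descriptions only.

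**Figure D1:**
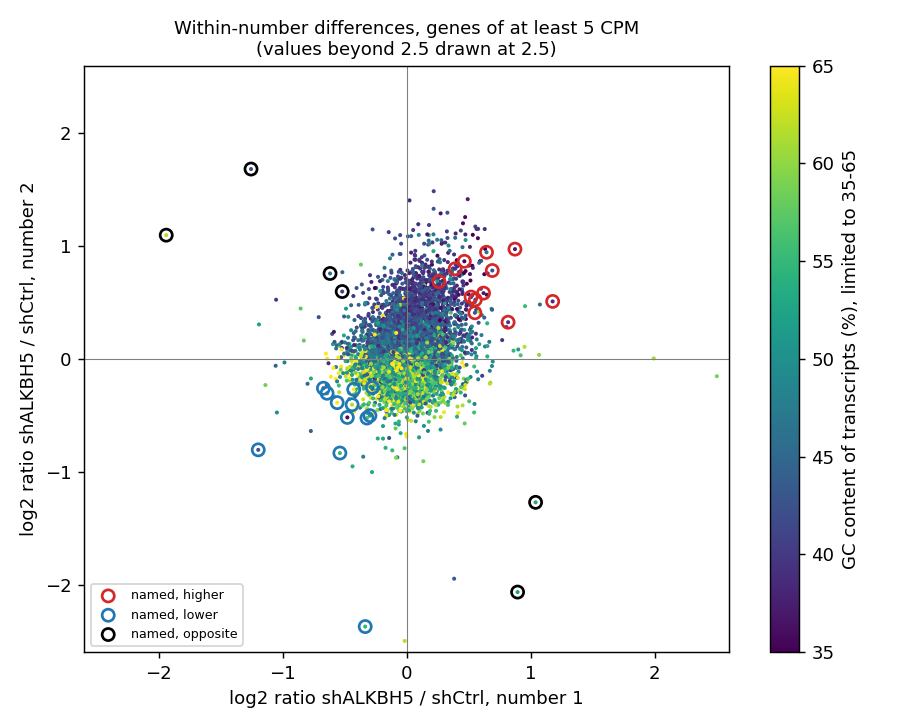
Log2 ratio of shALKBH5 to shCtrl in number 1 (x axis) and in number 2 (y axis) for genes that average 5 CPM or more, coloured by the GC content of their transcripts. The cloud is centred near 0 in both directions, AT-rich genes lie towards the top, and the ringed genes are those named in the text as higher in both, lower in both, or opposite.

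Genes that agreed in direction in both numbers were named by the smallest p among protein-coding genes with at least 5 CPM on average and a log2 ratio of 0.25 or more in each number. That rule had 301 candidates on the higher side and 50 on the lower. Its ratio uses the same libraries as the fit, so agreement was required, not found. All 24 genes named had an edgeR adjusted p of 0.978.

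BMT2, USP1 and MZT1 were among the higher genes. BMT2 (chr7:112819147-112939916) encodes SAMTOR, a sensor of S-adenosylmethionine, the methyl donor of m6A, in the mTORC1 pathway. It measured 4.41 and 5.96 CPM in the shCtrl libraries and 8.17 and 11.8 CPM in the shALKBH5 libraries. Its groups do not overlap, with a log2 difference of 0.95 (SE 0.23). In the rescue libraries it was at 4.13 and 9.90 CPM, at the shCtrl level in number 1 only. USP1 (chr1:62436297-62451804), the deubiquitinase of FANCD2 and PCNA, was at 48.1 and 48.9 CPM in shCtrl and 68.9 and 71.6 CPM in shALKBH5. The values within each group differ little, and the log2 difference was 0.54 (SE 0.15, 0.52 and 0.55 within the numbers). The rescue libraries had 40.5 and 61.8 CPM. MZT1, a small subunit of the gamma-tubulin complex, was at 17.9 and 19.1 CPM against 24.8 and 34.9 CPM (0.67, SE 0.18). The shALKBH5 library of number 2 stood furthest from the rest.

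The other higher genes are given here with what is known of each. TMED5, a p24 family protein of traffic between the endoplasmic reticulum and the Golgi, was at 51.7 and 44.0 CPM in shCtrl and 67.8 and 76.7 CPM in shALKBH5 (0.58, SE 0.19). CALM2, one of the genes for calmodulin, was at 150 and 139 CPM against 180 and 223 CPM, with a log2 difference of 0.46 (SE 0.14). LYSMD3, a membrane protein with a LysM domain, was at 6.58 and 6.6 CPM against 10.7 and 11.4 CPM (0.75, SE 0.21). RAB23, a small GTPase that restrains hedgehog signalling, had a log2 difference of 0.61 (SE 0.19), TMEM135 0.84 (SE 0.26), SLITRK4, a transmembrane protein known from neurons, 0.48 (SE 0.15), and KIAA0408 0.77 (SE 0.20). GALNT4, which starts O-linked glycosylation, was at 0.58 (SE 0.19), while POC1B-GALNT4, a read-through gene that contains it, was at -0.30 (SE 0.44). MTRNR2L12 was at 461 and 385 CPM against 677 and 554 CPM (0.54, SE 0.15), and its transcript resembles mitochondrial 16S ribosomal RNA, so its counts may include reads of that RNA.

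AC010132.3, EIF3CL and DIABLO were among the lower genes. AC010132.3 (chr7:42909273-42932174), a gene model that overlaps PSMA2 on the same strand, had the smallest p of all 24 (0.00029 before adjustment). It was at 9.84 and 11.9 CPM in shCtrl and 4.23 and 6.77 CPM in shALKBH5, with no overlap, a log2 difference of -1.0 (SE 0.18). PSMA2 was at 0.11 (SE 0.11). EIF3CL, a copy of the translation initiation factor gene EIF3C, was at 276 and 175 CPM in shCtrl and 219 and 33.7 CPM in shALKBH5. The library of number 2 alone was far from the others, and the log2 difference was -1.33 (SE 0.35). EIF3C is near-identical to it and was at 0.11 (SE 0.10), so the split of reads between the copies is uncertain. DIABLO, the mitochondrial protein that relieves caspase inhibition, was at 10.3 and 6.92 against 7.08 and 3.83 CPM (-0.71, SE 0.25), and AC048338.1, a model that overlaps it on the same strand, was at 0.92 (SE 0.50).

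ALKBH3, an oxygenase of the ALKBH5 family that repairs alkylated nucleic acids, was at 17.4 and 22.3 CPM in shCtrl and 14.1 and 15.7 CPM in shALKBH5, a log2 difference of -0.41 (SE 0.15). DECR1, an enzyme of the mitochondrial oxidation of unsaturated fatty acids, was the most even of the group. It was at 80.3 and 79.2 CPM against 66.3 and 66.4 CPM (-0.27, SE 0.10), and at 82.5 and 76.1 CPM in the rescue libraries. CCL20, the chemokine ligand of CCR6, was at 9.84 and 2.98 against 7.03 and 2.05 CPM (-0.51, SE 0.20), so each pair moved one way while the groups overlap. The remaining lower genes were E2F5, a repressor of cell cycle genes, at -0.48 (SE 0.19), the zinc-finger gene ZNF671 at -0.46 (SE 0.16), TMEM134 at -0.48 (SE 0.18), KCTD21 at -0.42 (SE 0.17), ACBD4, an acyl-CoA binding protein, at -0.43 (SE 0.17), and ANKRD9 at -0.35 (SE 0.14).

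**Figure D2:**
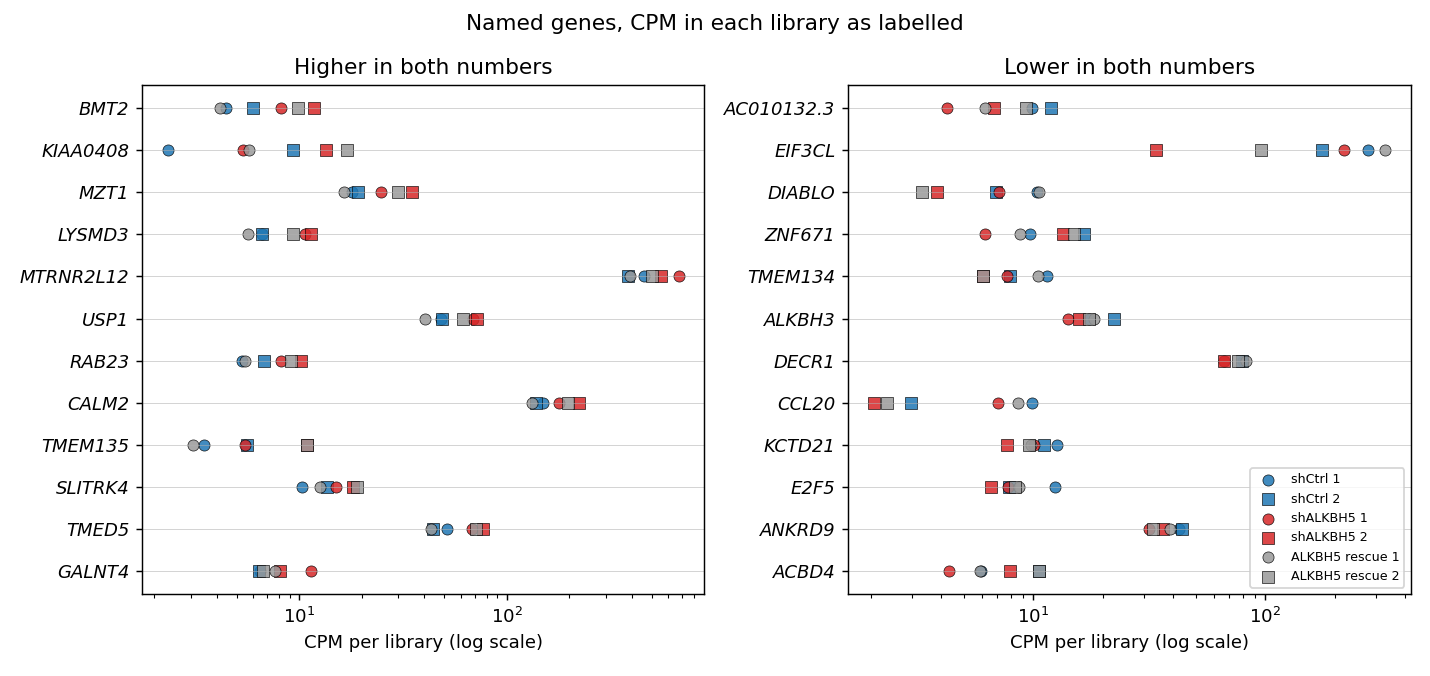
CPM (log axis) of the 12 higher and 12 lower genes named by the rule, 1 point per library, with circles for number 1, squares for number 2 and colour for the labelled group. Red shALKBH5 points lie to the right of the blue shCtrl point of the same shape on the left panel and to its left on the right panel, as the naming rule requires, and the grey rescue points take no common side.

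A fit of the 4 libraries alone, with the block and 1 residual degree of freedom, gave a different count. It called 381 of 14247 genes (2.67%), 351 higher (2.46%) and 30 lower (0.211%). Of the 24 genes named above, picked by p in a fit that holds these libraries, 15 were among them. In the 4-library fit edgeR found no difference in spread between genes beyond that set by expression level (its prior degrees of freedom were infinite). A gene's own disagreement between numbers thus hardly entered its p. Genes are named here from the 15 protein-coding genes of at least 5 CPM on average called higher with the smallest p. That choice was made after their values were seen. CDK1, the kinase that drives entry into mitosis, was at 29.3 and 39.8 CPM in shCtrl and 43.6 and 83.7 CPM in shALKBH5 (edgeR adjusted p = 2.8e-12 in the 4-library fit). It was at 24.5 and 95.1 CPM in the rescue libraries, lowest of all 6 in number 1 and highest in number 2. SKA2 and KNL1, of the kinetochore, PSMD12, of the proteasome lid, OSBPL8, a lipid transfer protein, MATR3, of the nuclear matrix, NAMPT, which makes NAD, GMFB, IPO7 and FCF1 were also among the 15. Of these, 14 were higher in both numbers and further apart in number 2, with log2 ratios of 0.17 to 0.63 in number 1 and 0.86 to 1.33 in number 2. The exception was ZACN, a ligand-gated ion channel, at 0.940 and 10.1 CPM in shCtrl and 17.2 and 9.08 CPM in shALKBH5, with ratios of 4.04 and -0.15.

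**Figure D3:**
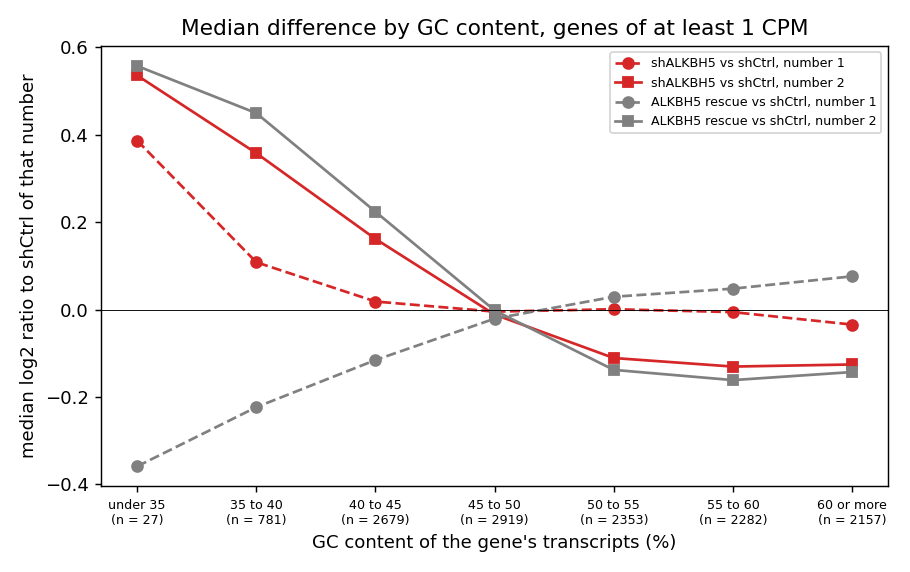
Median log2 ratio to the shCtrl library of the same number (y axis) over genes of at least 1 CPM, in bins of transcript GC content (x axis), for shALKBH5 (red) and ALKBH5 rescue (grey). In number 2 both lines fall from over 0.5 in the most AT-rich bin to below 0 above 50% GC, while in number 1 the rescue line rises from -0.36 to 0.08.

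The genes called in the 4-library fit were rich in A and T. The 351 higher genes had a median GC content of 40.5% where all genes tested had 50.5%, and the 30 lower genes had 52.8%. Of genes with 35 to 40% GC, 143 of 781 were called higher, and of those with 60% or more, 3 of 2157. In number 2 the median log2 ratio ran from 0.54 under 35% GC (27 genes) and 0.36 at 35 to 40% (781 genes) to -0.13 at 60% or more. In number 1 it was 0.39, 0.11 and -0.03 in the same bins. The rescue libraries, set against the same shCtrl libraries, gave -0.36, -0.22 and 0.08 in number 1 and 0.56, 0.45 and -0.14 in number 2. For the 351 higher genes the medians were 0.28 and 0.69 in shALKBH5, and -0.35 and 0.76 in rescue. GC content and the ratio correlated across 13198 genes at r = -0.11 in number 1 and r = -0.43 in number 2, and genes of a library are not independent.

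When the trend of each library on GC content was taken out, an alternative added after the data were seen, 0 genes passed. This held with all 6 libraries (395 at an unadjusted p under 0.05, 215 higher and 180 lower) and with the 4 (1164, 592 higher and 572 lower), by edgeR with the block. In the 4-library fit 1383 genes had met that unadjusted p before the removal. Its prior degrees of freedom also went from infinite to 6.64, so a gene's own spread then entered its p. Which of these changes cost the calls was not tested. With the GC trend removed, RPL21P16 was also past no threshold. The log2 difference with 6 libraries was then 0.37 for USP1, 0.64 for BMT2, 0.63 for LYSMD3 and -1.11 for AC010132.3. It was smaller by over 1.5 times for MZT1 (0.19), RAB23 (0.29), CALM2 (0.26), KIAA0408 (0.45), GALNT4 (0.35), TMED5 (0.37) and ANKRD9 (-0.22), and larger by as much for CCL20 (-0.82). The motif GGACT, a frequent context of m6A, searched on the transcript strand, occurred at a median of 0.715 per kilobase in the 351 higher genes and at 0.975 over all genes tested. It contains more G and C than A and T, and its part apart from GC content was not tested.

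No gene of the m6A machinery passed. Of 9 writer genes, 4 were positive and 5 negative, with a median of -0.04, where all 14497 genes had a median of -0.03 and 43.3% were positive. All 9 had a 95% interval inside a 2-fold change and inside a 1.5-fold change. METTL3, the catalytic subunit, was at 78.0 and 78.3 CPM in shCtrl and 80.3 and 71.8 CPM in shALKBH5 (-0.04, SE 0.10). METTL14 was at 0.07 (SE 0.14), WTAP, which brings the complex to nuclear speckles, at -0.07 (SE 0.11), and RBM15 at 0.18 (SE 0.13). FTO, the other m6A demethylase, was at 33.0 and 47.6 against 34.2 and 44.0 CPM (-0.03, SE 0.12, 95% interval -0.31 to 0.24). Over the 9 genes of this family, ALKBH5 and FTO included, the median was -0.08, and 2 were positive. Of 10 readers tested 2 were positive. YTHDF1, YTHDF2 and YTHDC1 were at -0.05 (SE 0.10), -0.08 (SE 0.10) and -0.02 (SE 0.12). YTHDF3 was at 0.23 (SE 0.13), and IGF2BP3, under 1 CPM in every library, at -1.08 (SE 0.66), the 1 reader whose interval reached past 2-fold.

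Genes tied to ALKBH5 in other work showed no shared direction, with 4 of 11 positive and a median of -0.03. Their values ran from -0.87 to 0.54, and 9 of the 11 had intervals inside a 2-fold change. USP1 was the 1 member with an unadjusted p under 0.05. MYC, FOXM1 and TACC3 lay inside a 1.5-fold change, with 95% intervals of -0.27 to 0.21, -0.40 to 0.08 and -0.30 to 0.14. AXL, at 0.506 to 1.68 CPM in the 4 libraries, had an interval of -0.42 to 1.34, which includes a 2-fold difference.

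USP1 belongs to the Fanconi anaemia pathway, which repairs crosslinks between DNA strands. Of 21 genes of the pathway, 13 were positive and 3 had an unadjusted p under 0.05, all higher, beside 1.83% of all genes. These were USP1, FANCL, the ubiquitin ligase of the pathway, at 0.42 (SE 0.16), and FANCM, the helicase that anchors its core complex, at 0.61 (SE 0.25). USP1 had already been named above for its small p, and the list was chosen with earlier results of these data known. The count of 3 is therefore a description only. The list median was 0.07, with 0.02 in number 1 and 0.19 in number 2, and its median GC content was 43.9%. FANCD2, the substrate of USP1, was at 69.6 and 112 CPM against 61.2 and 111 CPM (-0.09, SE 0.10), and WDR48, the cofactor of USP1, at 0.11 (SE 0.13). In rescue FANCM gave -0.36 and 0.81 against shCtrl in numbers 1 and 2, the same turn as the AT-rich genes above.

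Genes of the cell cycle were split. Of 33 genes of G2 and mitosis, 17 were positive, with a median of 0.00, and 4 were called in the 4-library fit, all higher, beside 2.46% of all genes. These were CDK1, CENPE, a kinetochore motor, at 0.54 (SE 0.20), KIF11, the bipolar spindle motor, at 0.42 (SE 0.20), and TTK, a spindle checkpoint kinase, at 0.58 (SE 0.32) in the main fit. Their GC content was 35.6% to 38.3%, while the list median was 46.5%. CCNB2, the cyclin partner of CDK1, was at -0.19 (SE 0.11). Of 35 genes of DNA replication and G1/S, 8 were positive, with a median of -0.05.

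Zinc-finger genes of the C2H2 class are mostly transcription repressors. Of 491 tested, 311 were positive, where 43.3% of all genes were, and the median was 0.07 (0.04 in number 1 and 0.11 in number 2). The fitted median was -0.01 without shCtrl replicate 2 and 0.18 without shCtrl replicate 1. It was 0.12 without shALKBH5 replicate 2 and 0.04 without shALKBH5 replicate 1. With a library left out, the rescue libraries enter the difference through the replicate block. An unadjusted p under 0.05 was met by 18 higher and 2 lower members, beside 1.83% and 0.559% of all genes, and 22 were called in the 4-library fit, all higher, beside 2.46% of all genes. ZNF829 was at 0.795 and 1.44 CPM against 2.11 and 2.68 CPM (1.11, SE 0.33), ZNF98 at 0.54 (SE 0.18) and ZNF615 at 0.77 (SE 0.28). These genes are similar in sequence, so reads can be divided wrongly among them. The list median with the GC trend taken out was 0.06, and in rescue it was -0.09 and 0.17.

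Genes of the ribosome, of oxidative phosphorylation and of the proteasome had negative values in most members, by little. Of 79 cytosolic ribosomal protein genes 76 were negative, with a median of -0.11 (-0.05 in number 1 and -0.16 in number 2). RPL26 had 281 and 245 CPM against 239 and 204 CPM (-0.25, SE 0.11), RPS24 at 730 and 724 against 578 and 653 CPM (-0.24, SE 0.13), and RPS9 at -0.52 (SE 0.23), with RPL21 on the other side. Intervals lay inside a 1.5-fold change for 77 of the 79. Complex I had 33 of 36 genes negative and a median of -0.08, with NDUFB3 at -0.29 (SE 0.13) and NDUFA5, at 36% GC, at 0.22 (SE 0.13). Complexes III to V had 32 of 34 negative and a median of -0.11, with ATP5PO and COX7A2 at -0.20 (SE 0.12) and -0.21 (SE 0.13). The proteasome had 27 of 31 negative and a median of -0.09. Within number 1 the medians were -0.04 for complex I, -0.07 for complexes III to V and -0.04 for the proteasome. In number 2 they were -0.11, -0.15 and -0.12 in that order. The fitted medians moved with the library left out. In such a fit the rescue libraries enter the difference through the replicate block. Without shCtrl replicate 2 the medians were 0.02 for the ribosome and complex I, -0.01 for complexes III to V and -0.02 for the proteasome. Without shCtrl replicate 1 they were -0.23, -0.19, -0.21 and -0.15 in the same order. None of these 4 lists had a member past the threshold in the main fit, while the 4-library fit called RPL21 and PSMD12 higher and RPS9 lower. Over all genes tested the median was -0.03, as given above. In rescue the ribosomal list stood at 0.18 in number 1 and at -0.22 in number 2, against the same shCtrl libraries.

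The 13 protein genes of the mitochondrial genome went opposite ways. All 13 were higher in number 1 (0.06 to 0.77) and 12 were lower in number 2 (-0.22 to 0.17), with medians of 0.22 and -0.13. MT-ATP8, a subunit of ATP synthase, was the 1 gene higher in both. It was at 43.3 and 55.7 CPM in shCtrl and 73.9 and 62.5 CPM in shALKBH5, without overlap, a log2 difference of 0.46 (SE 0.15, edgeR adjusted p = 0.978).

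No myeloid gene passed in the main fit, and the 4-library fit called 1 lower, CEBPD (edgeR adjusted p = 0.0115), beside 0.211% of all genes. Of 27 genes of monocyte and granulocyte differentiation, 24 were negative, with a median of -0.09 (0.01 without shCtrl replicate 2), and all 27 had intervals inside a 2-fold change. S100A9, a calcium-binding protein of granules and monocytes, was at 3969 and 6017 CPM in shCtrl and 4105 and 5273 CPM in shALKBH5 (-0.08, SE 0.15). LYZ was at -0.07 (SE 0.12). CEBPD, a transcription factor of the lineage, was at 210 and 216 CPM against 140 and 205 CPM, lower than shCtrl mainly in replicate 1 (-0.31, SE 0.21). The rescue libraries had 175 and 116.5 CPM, the latter the lowest of all 6. Of 15 genes of the HOXA and MEIS1 programme of leukaemia, 9 were positive, with values from -0.74 to 0.23. In the main edgeR fit 1 was lower at an unadjusted p under 0.05, beside 0.559% of all genes. Intervals lay inside a 2-fold change for 11 of the 15. HOXA9 was at 0.07 (SE 0.10, 95% interval -0.16 to 0.30) and MYB at -0.04 (SE 0.10).

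The intervals set limits on what a missed change could be. Of the 14497 genes, 12114 (83.6%) had a 95% interval inside a 2-fold change in either direction and 9327 (64.3%) inside a 1.5-fold change. These are intervals for each gene alone. From 20 to 100 CPM the shares were 98.8% and 90.7% of 5295 genes, and at 100 CPM or more 99.9% and 97.2% of 2327. From 1 to 5 CPM they were 62% and 6.1% of 2392 genes, and under 1 CPM 24 of 1295 genes (1.85%) were bounded at 2-fold and 0 at 1.5-fold. The median interval reached 0.231 on either side at 100 CPM or more and 1.17 under 1 CPM. Without the block, 2714 genes were inside 1.5-fold. Without shALKBH5 replicate 1 the number was 4580, and without shALKBH5 replicate 2 it was 3928.

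**Figure D4:**
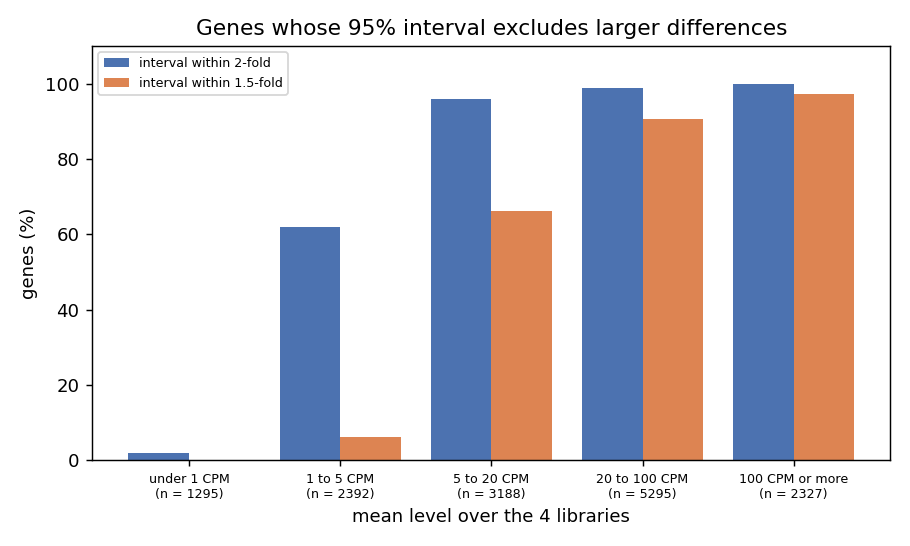
Share of genes (y axis, percent) whose 95% interval for shALKBH5 minus shCtrl lies inside a 2-fold change (blue) or a 1.5-fold change (orange), by mean CPM over the 4 libraries (x axis). At 5 to 20 CPM 95.8% were inside 2-fold and 66.3% inside 1.5-fold, and under 1 CPM nearly none were.

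Single transcripts were tested next, since a change of splicing can leave the gene total as it was. edgeR called 0 of 61890 transcripts (1695 at an unadjusted p under 0.05, 873 higher and 822 lower), and the typical variation between libraries of a transcript was 49.6%. DESeq2 with the block called 81 (0.131%), 42 higher (0.0679%) and 39 lower (0.063%). All 81 had the same direction in both numbers, which picking them by a paired fit of the same libraries favours. Of these, 57 were at 0 in at least 1 of the 4 libraries, 22 at 0 in both shCtrl libraries and 20 at 0 in both shALKBH5 libraries. Among 43814 transcripts of at least 1 CPM, 1920 were higher by a log2 ratio of 0.5 or more in both numbers (4.38%), 1664 were lower (3.8%) and 3223 moved oppositely (7.36%). The number in agreement was thus about that in disagreement, and the ratios of both numbers correlated at r = 0.006.

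The transcripts described now were named like the genes, by p in the edgeR fit among those with at least 2 CPM. All 16 had an edgeR adjusted p of 1, and 15 passed in DESeq2. Most can be told from their relatives by few bases. Stretches of 31 bases were searched on the transcript strand among the transcripts matched to GENCODE 29. The 16259 deposited transcripts without a match were not searched. The share of stretches found in no other transcript searched ran from 0% to 20.9% with a median of 0.858%, and 4 of the 16 had none. For 5 of them the distinguishing stretch crosses an exon junction in the coding sequence. It is shown with capitals for the bases common to the longest run of distinguishing 31-base stretches, which no other transcript searched holds. How far the count of the transcript rests on reads across that point was not measured. The run holds all distinguishing stretches of the transcript, except in SLC39A13-202, where it holds 28 of 33. The sequences are those of GENCODE 29, on the transcript strand.
TPM3-207: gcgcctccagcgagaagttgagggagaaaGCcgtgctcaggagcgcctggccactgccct
ARID1A-205: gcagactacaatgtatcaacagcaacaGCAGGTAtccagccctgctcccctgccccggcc
PLK4-209: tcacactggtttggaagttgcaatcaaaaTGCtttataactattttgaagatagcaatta
DMXL2-202: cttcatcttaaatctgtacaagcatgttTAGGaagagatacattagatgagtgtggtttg
SLC39A13-202: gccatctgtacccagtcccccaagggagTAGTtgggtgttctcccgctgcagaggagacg

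TPM3-207 (ENST00000341372.7, chr1:154156366-154183181) is a transcript of tropomyosin 3, which lines actin filaments, and its capitals mark the join of exon 1, which ends at base 178, to the next exon. It was at 40.6 and 41.7 CPM in shCtrl and 90.4 and 116 CPM in shALKBH5. The values are even within each group and do not overlap, with a log2 difference of 1.32 (SE 0.12, DESeq2 adjusted p = 5.8e-10). Its share of the gene's counts was 2.52% and 3.15% in shCtrl and 5.54% and 8.70% in shALKBH5, while TPM3 as a whole was at 0.01 (SE 0.11). TPM3-219 was at 101 and 104 CPM in shCtrl and 64.3 and 31.2 CPM in shALKBH5. In the rescue libraries TPM3-207 was at 101 and 124 CPM, with shALKBH5 and not with shCtrl.

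ARID1A-205 codes for a form of the DNA-binding subunit of the SWI/SNF chromatin remodeller. It was at 3.30 and 2.51 CPM in shCtrl, 12.3 and 10.1 CPM in shALKBH5 and 5.17 and 5.13 CPM in rescue, a log2 difference of 1.95 (SE 0.24) with ARID1A as a whole at -0.01 (SE 0.10). SMARCA2-208, from the gene for an ATPase of the same remodeller, was lower. It was at 26.5 and 29.4 CPM in shCtrl, 0.435 and 1.36 CPM in shALKBH5 and 40.5 and 24.2 CPM in rescue, and its log2 difference was -4.96 (SE 0.63, DESeq2 adjusted p = 3.05e-11). SMARCA2-204 was at 21.5 and 63.7 against 58.1 and 92.3 CPM, and SMARCA2 as a whole was at -0.02 (SE 0.10). Only 0.779% of the 31-base stretches of SMARCA2-208 are its own.

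PLK4-209 is a transcript of the kinase that starts centriole duplication. It was at 1.99 and 9.87 CPM in shCtrl, at 0 in both shALKBH5 libraries, and at 0.417 and 1.92 CPM in rescue. Against a floor of 3 counts over both shALKBH5 libraries together it was at least 74.2-fold lower by group means, while PLK4-210 was at 0.206 and 5.74 against 6.41 and 23.0 CPM. SLC39A13-202, from the gene of a zinc transporter, was at 4.88 and 3.39 CPM in shCtrl and 0 in both shALKBH5 libraries, at least 51.7-fold lower by the same floor, and at 4.80 and 6.86 CPM in rescue. DMXL2-202, from a gene for a regulator of the vacuolar proton pump, was at 10.5 and 7.73 against 1.52 and 1.36 CPM (-2.63, SE 0.31), and its capitals hold the join of exon 16 to the next. Rescue had 2.17 and 1.24 CPM.

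**Figure D5:**
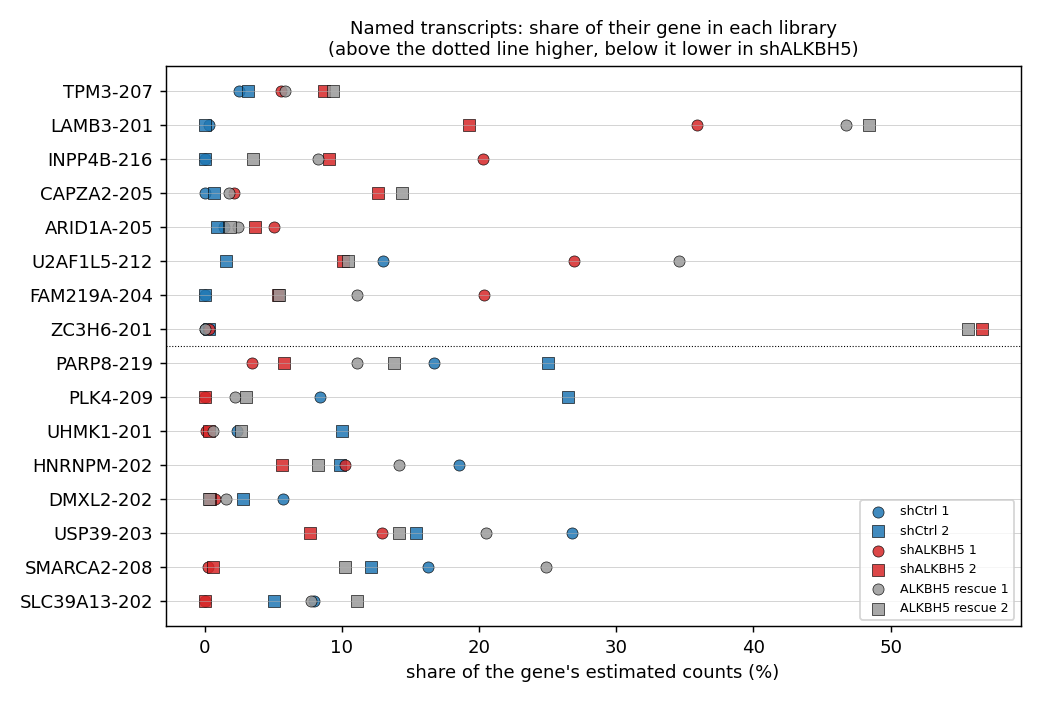
Share of the gene's estimated counts (x axis, percent) held by each of the 16 named transcripts, 1 point per library, with circles for number 1 and squares for number 2. Transcripts above the dotted line are higher in shALKBH5 (red) than in shCtrl (blue), as with TPM3-207 from 2.52% and 3.15% to 5.54% and 8.70%, and the grey rescue points take no common side.

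The other named transcripts held from 0% to 56.6% of their gene's counts in these 4 libraries. HNRNPM-202, of a splicing factor gene, was at 88.6 and 45.9 CPM in shCtrl and 47.5 and 26.0 CPM in shALKBH5, lower in each pair while the groups overlap (-0.86, SE 0.10). HNRNPM as a whole was at -0.04 (SE 0.10). USP39-203, of another splicing factor gene, was at -1.15 (SE 0.15) and has no 31-base stretch of its own. PARP8-219 was at 13.5 and 28.7 against 2.61 and 6.75 CPM (-2.22, SE 0.18) and has none either. UHMK1-201, the transcript with 20.9% of its own, was at 5.16 and 18.7 against 0.272 and 0.837 CPM (-4.41, SE 0.48), with UHMK1 as a whole at 0.46 (SE 0.22). On the higher side, INPP4B-216 and FAM219A-204 were at 0 in both shCtrl libraries and at least 47.0-fold and 47.2-fold higher in shALKBH5, with the floor taken over both shCtrl libraries. FAM219A-204 has no 31-base stretch of its own. LAMB3-201 was at 0.0688 and 0 CPM against 7.61 and 3.92 CPM, and CAPZA2-205, annotated as a target of nonsense-mediated decay, at 0 and 0.209 against 1.09 and 8.69 CPM, with CAPZA2 as a whole at 0.58 (SE 0.31). U2AF1L5-212, a copy of the splicing factor gene U2AF1 with no stretch of its own, was at 5.64 and 0.940 against 21.7 and 6.70 CPM, with U2AF1L5 as a whole at 0.46 (SE 0.20). ZC3H6-201 was at 0.0543 CPM in shALKBH5 replicate 1 and at 9.84 CPM in replicate 2, so its difference lies in 1 library, and DESeq2 did not call it (adjusted p = 0.523). These values rest on the division of reads among transcripts that overlap, and its error is not in the deposited tables.

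Protein-coding genes of at least 5 CPM on average with ratios of opposite sign in both numbers were ranked by the smaller of the pair, and the first 6 are given. ABCF1, a factor of translation, was at 27.2 and 23.5 CPM in shCtrl and 56.0 and 9.66 CPM in shALKBH5. RING1, a Polycomb ubiquitin ligase, was at 13.0 and 5.85 against 3.31 and 12.7 CPM. Both lie in the major histocompatibility region of chromosome 6. NOMO1 was at 22.1 and 49.2 against 41.1 and 11.7 CPM, and its near-identical copy NOMO2 at -0.07 (SE 0.10). LY75-CD302, a read-through gene, was at 5.06 and 4.84 against 2.06 and 15.8 CPM, and LY75 at 0.00 (SE 0.12). AC091057.6, which overlaps ARHGAP11B on the same strand, was at 15.4 and 14.4 against 10.0 and 24.5 CPM. MND1, of meiotic recombination, was at 11.4 and 11.5 against 7.88 and 17.5 CPM. For these 6 genes shALKBH5 lay on both sides of shCtrl, so no direction can be given.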

How the data were processed

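The submitters' processing notes name kallisto 0.43.1, CASAVA and the build hg38, without options. The deposited tables give the authors' estimated counts per Ensembl transcript, with a length, an effective length and a TPM value. Strand use is not given in the sources, and no molecular identifiers are mentioned. Estimated counts were summed per gene with GENCODE 29 (163714 of 179973 transcripts matched, 91.0%) and rounded. The 16259 unmatched transcripts, with 3.13% to 3.32% of counts, were left out of the gene sums. The authors' TPM values served only as weights for a gene's mean GC content and length.

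The main test was edgeR 4.0.16 in R 4.3.3 (TMM, filterByExpr, glmQLFit, glmQLFTest) on all 6 libraries with replicate number as a block, because the comparison was set as paired, with Benjamini-Hochberg adjustment at 0.05. Same-numbered libraries correlated in their deviations at 0.597 to 0.727. The chi-square per degree of freedom between libraries of one number was 3.65 and 10.5, so none was treated as deposited more than once. A standard error is the log2 difference divided by the square root of F. Ratios within a number use log2 CPM with a prior count of 2. Alternatives were no block, only the 4 libraries, RLE, DESeq2 1.42.0, limma 3.58.1 (voom), other filters, each library left out, and, added after the data were seen, removal of each library's trend on GC content (lowess, span 0.3). The procedure was tested on simulated data.

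Named genes are ALKBH5, every gene past the threshold, and by p up to 12 genes per direction that agree in both numbers by 0.25 or more with at least 5 CPM (8 transcripts, 2 CPM), up to 6 that disagree, and up to 4 members a list by p and 3 by level. METTL3, METTL14, FTO, YTHDF1, YTHDF2, YTHDC1, FANCD2, WDR48, CCNB2, NDUFA5, LYZ and HOXA9 were named outside that rule. So were overlapping or near-identical genes and some members of the list tied to ALKBH5. The comparison, lists and rules were chosen with earlier results of these data known.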

Additional observations from a re-analysis of the deposited data

Results flagged for a closer look

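In the 6 genes named for ratios of opposite sign, all of at least 5 CPM on average, the libraries of number 1 moved one way and those of number 2 the other, and this difference was not tested. The log2 ratio of shALKBH5 to shCtrl in number 2 minus that in number 1 was 2.94 for LY75-CD302, 3.04 for RING1, -2.31 for ABCF1, -2.96 for NOMO1, 1.38 for AC091057.6 and 1.12 for MND1. The 13 protein genes of the mitochondrial genome had a median of -0.35 on the same measure, and 12 of them were higher in number 1 and lower in number 2, which was not tested either.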

How the results depend on the processing

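Genes called higher numbered 1 in the paired edgeR fit. They were 0 with no replicate block, 351 with the 4 libraries only, 0 by limma-voom, 3 with no filter, 0 with the GC trend removed (6 or 4 libraries), and 1 to 378 with a library left out. Genes called lower were 30 with the 4 libraries only and 0 to 42 with a library left out, where they were 0 in the main fit. Transcripts called by DESeq2 were 42 higher and 39 lower, and 0 in each direction in every other fit run. Genes bounded at 1.5-fold were 2714 with no replicate block and 3928 to 10302 with a library left out.

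Genes higher in both numbers were 166 with no minimum level and 29 at 5 CPM, and those lower in both were 103 and 3. For transcripts the numbers were 3811 and 459 higher, and 3229 and 318 lower. Leaving out a library cannot give this count, which needs all 4. With a library left out, the log2 difference of RPL21P16 ran from -0.024 (without shCtrl replicate 2, the library at 0 that its call is set against) to 11.1. It did not pass the threshold in DESeq2, in limma-voom, with no replicate block, with the GC trend removed, or without replicate 2 of shCtrl or shALKBH5. All 24 named genes kept their direction in every alternative run, and 15 were called in the 4-library fit. Their naming rule required agreement in both numbers and a small p in these same libraries, which favours both results. The sizes of some moved by over 1.5 times. Without shCtrl replicate 2 the log2 difference was 0.37 for MZT1, 0.20 for CALM2, 0.44 for TMEM135, 0.26 for TMED5, -0.54 for EIF3CL, -0.37 for DIABLO, -0.24 for ALKBH3 and -0.72 for E2F5. Without shCtrl replicate 1 it was 0.75 for CALM2, 0.94 for TMED5, -2.10 for EIF3CL and -0.21 for E2F5. Without shALKBH5 replicate 1 it was 0.37 for GALNT4, -2.12 for EIF3CL and -0.20 for ANKRD9, and without replicate 2 -0.64 for EIF3CL and -0.28 for KCTD21. EIF3CL was at -0.84 with no replicate block. Of 29 list medians, 12 changed sign without shCtrl replicate 2, 4 without shCtrl replicate 1, 2 and 3 without shALKBH5 replicate 1 or 2, 0 without either rescue library, 5 with the GC trend removed and 1 each with no replicate block and with RLE. The 16 named transcripts kept their direction too, which their naming rule favours in the same way, except that ZC3H6-201 could not be fitted with the 4 libraries only. The pairing comes from the titles, and with no replicate block the 1 call was lost and none gained. Genes under 5 CPM are bounded poorly at this depth. Intervals reflect the spread between libraries and leave out the error in dividing reads among similar transcripts.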
